A study of Mus musculus with 4 samples.

Results

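The miR-29 family was followed in small RNA from small extracellular vesicles, the membrane particles that cells shed into body fluids, of mouse plasma. The MI group had 2 libraries from wild-type mice sampled 12 h after a surgically made myocardial infarction (MI), and the sham group had 2 libraries from wild-type mice 12 h after sham surgery. All mice were on a normal diet, and the sources used here do not give strain, age, sex or whether a library came from 1 animal or a pool. The miR-29 rows were chosen by name, as mmu-miR-29a, mmu-miR-29b or mmu-miR-29c with either arm, and the measured value that decided whether a name was present was its listing with at least 10 unique molecular identifiers (UMIs, random tags that count each captured RNA molecule once). This gave 5 of the 530 miRNA names listed in any library. They are mmu-miR-29a-3p, mmu-miR-29b-3p and mmu-miR-29c-3p, listed in all 4 libraries, and the passenger arms miR-29a-5p and miR-29b-1-5p, listed in 1 library each. No miR-29 row joined several names.

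As background, the members of the family share a seed, the stretch near the 5′ end of a miRNA that pairs with target messenger RNAs, and so they are predicted to repress largely the same targets. In the mouse heart these include collagens, elastin and fibrillin of the extracellular matrix, and the family is best known there as a brake on scar and fibrosis formation after infarction. DNA methyltransferases are also known targets. The guide arm is the strand that stays bound to Argonaute, and the passenger arm of the same hairpin is mostly degraded.

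The 3 guide arms are shown first because the comparison rests on telling them apart. The sequences are those of RefSeq on GRCm38.p6, where all 4 hairpins and 7 mature names of the family were found, and capitals mark the seed (bases 2 to 8).
miR-29a-3p: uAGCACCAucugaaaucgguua
miR-29b-3p: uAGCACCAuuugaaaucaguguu
miR-29c-3p: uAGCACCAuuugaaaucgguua

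Among 1679 mature mouse miRNA names in the RefSeq table, 3 carry this 7-base seed, and all of them are miR-29 guide arms. With positions counted from 1 at the 5′ end, miR-29a-3p and miR-29c-3p (22 bases each) differ by 1 substitution, C10U, which lies outside the seed. miR-29c-3p and the 23-base miR-29b-3p differ by 3 substitutions, G18A, U21G and A22U, and by the extra last base. A read of miR-29a-3p with 1 changed base can therefore read as miR-29c-3p, and the sources used here do not give the mismatches allowed when reads were assigned. The last 6 bases of miR-29b-3p, AGUGUU, are known from human cells as an element that carries this miRNA into the nucleus. They end 2 of the 1679 mature names (the other is miR-92b-5p), and 0.715% of the names hold them anywhere on the RNA strand given.

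The family is encoded in a pair of clusters, and the hairpins are shown because they decide which locus a count can be credited to. Capitals mark the mature arms, the 5p arm first.
Mir29a: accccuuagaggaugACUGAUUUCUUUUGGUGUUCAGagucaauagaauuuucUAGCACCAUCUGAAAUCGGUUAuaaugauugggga
Mir29b-1: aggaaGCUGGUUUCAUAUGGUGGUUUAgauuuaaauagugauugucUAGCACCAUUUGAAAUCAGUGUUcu
Mir29b-2: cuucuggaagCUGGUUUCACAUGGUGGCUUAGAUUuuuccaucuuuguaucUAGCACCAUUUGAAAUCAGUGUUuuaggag
Mir29c: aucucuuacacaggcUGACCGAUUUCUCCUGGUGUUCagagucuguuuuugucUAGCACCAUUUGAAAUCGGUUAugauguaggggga

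Mir29a (chr6:31062660-31062747) and Mir29b-1 (chr6:31063023-31063093) lie 275 bases apart on the minus strand of GRCm38. GENCODE M21 annotates the long non-coding gene Gm27019 over the first bases of Mir29b-1, but not over Mir29a. Only the hairpins, Gm27019, A330023F24Rik and Cd46 were looked up, so other genes at these loci were not searched for. Mir29b-2 (chr1:195037040-195037120) and Mir29c (chr1:195037547-195037634) lie 426 bases apart on the plus strand. Both are within exon 3 (chr1:195033823-195037904), the last of a transcript of the long non-coding gene A330023F24Rik, and, on the opposite strand, within exon 11 of Cd46, which encodes a complement regulator. The positions were found by gene name, since the sources used here do not name the build used for counting. The miR-29b-3p made by Mir29b-1 and by Mir29b-2 is the same molecule, so its UMIs cannot be divided between the clusters. The passenger arms can be, because miR-29b-1-5p and miR-29b-2-5p differ by U11C and U19C (positions counted along miR-29b-1-5p) over the 21 bases they share.

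**Figure D1:**
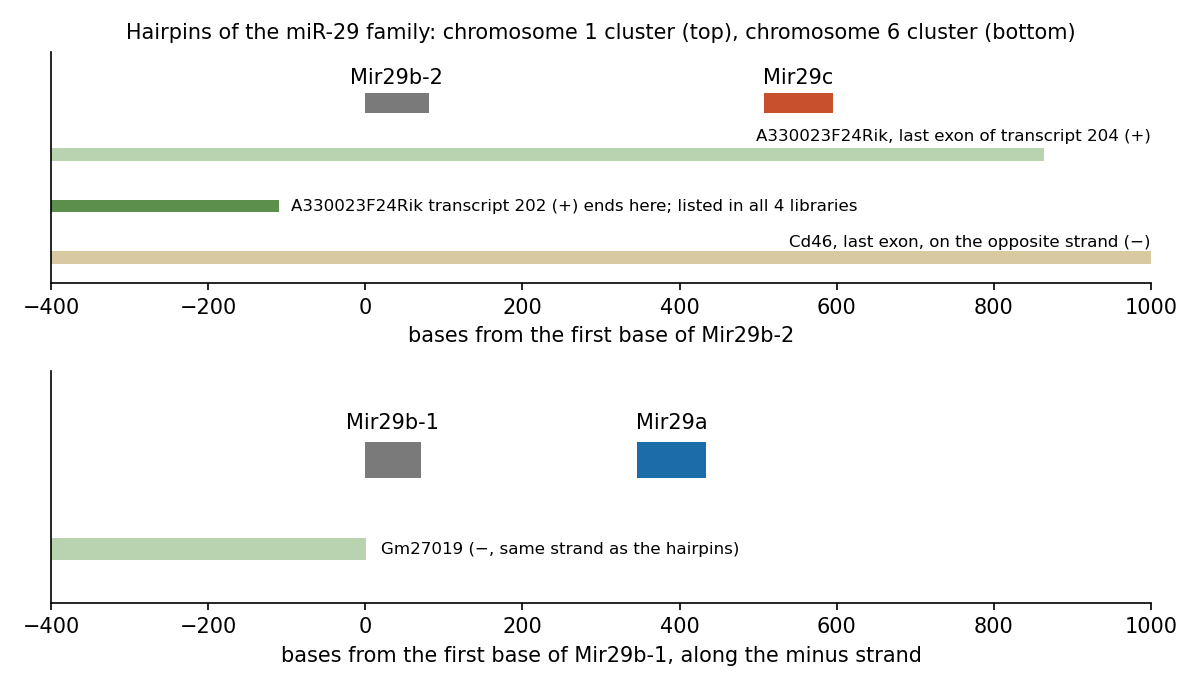
Maps of both clusters, drawn to scale in bases from the first hairpin along the transcribed strand; boxes are hairpins and bars are annotated exons or genes of GENCODE M21, cut at the plot edges. Mir29b-2 and Mir29c lie 426 bases apart and Mir29b-1 and Mir29a 275 bases apart, and the A330023F24Rik transcript counted in the libraries ends 110 bases before Mir29b-2.

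The libraries differed in depth. They held 14455043 and 11872840 total reads in the MI group and 24626952 and 12955563 in the sham group. These gave 218960 and 135334 miRNA UMIs after MI and 377031 and 160451 after sham surgery. An unlisted name had fewer than 10 UMIs, and no listed name had fewer. The UMI intervals below are 95% exact Poisson intervals and the intervals of shares 95% exact Clopper-Pearson ones, and both cover counting error only. Because the labels do not say that replicates came from separate animals, each p-value reflects library-to-library spread alone, and that spread may be technical. In plasma vesicles, more cells or vesicles that carry a miRNA and more of it in each cannot be told apart.

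Among the guide arms, miR-29c-3p had more UMIs per 1000000 miRNA UMIs (CPM) after MI, while the levels of miR-29a-3p and miR-29b-3p overlapped between the groups. None of the 3 passed an adjusted p of 0.05 after MI, in either direction, in the edgeR quasi-likelihood test over 267 miRNAs. For all tested miRNAs, 1.50% passed as higher and 0.749% as lower after MI. By unadjusted p under 0.05, 1 member was higher (miR-29c-3p) and 0 were lower, where 5.99% of all tested miRNAs were higher and 8.61% lower. The DESeq2 Wald test also called 0 of the 3, against 3.00% of all tested miRNAs as higher and 2.62% as lower. The family was proposed with earlier results of these data known, so the p-values of its members are no independent evidence.

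miR-29a-3p was the most abundant member. It had 764 and 432 UMIs in the MI libraries, and 1225 and 538 UMIs in the sham libraries. Its level was 3489 CPM (3246 to 3746) and 3192 CPM (2898 to 3508) after MI, and 3249 CPM (3069.7 to 3436) and 3353 CPM (3076 to 3649) after sham surgery. The sham values lay between the MI values, so the groups overlapped. The means were 3341 ± 210.1 CPM after MI and 3301 ± 73.5 CPM after sham surgery (SD, n = 2 each), with a log2 fold change of 0.05 (SE 0.16, edgeR adjusted p = 0.930). It ranked 34th by UMIs in each MI library, and 40th and 38th in the sham libraries.

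miR-29b-3p, the member that either cluster can make, had 254 and 143 UMIs in the MI libraries, and 574 and 165 UMIs in the sham libraries. Its level was 1160.0 CPM (1022 to 1312) and 1057 CPM (891 to 1245) after MI, and 1522 CPM (1400.4 to 1652) and 1028 CPM (877 to 1198) after sham surgery. Sham replicate 1 stood above the other libraries, sham replicate 2 was the lowest, and the groups overlapped. The log2 fold change was -0.18 (SE 0.27, edgeR adjusted p = 0.895), from means of 1108 ± 73.1 CPM after MI and 1275 ± 349 CPM after sham surgery (SD, n = 2 each). Without sham replicate 1 the direction turned, with a log2 fold change of 0.10.

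miR-29c-3p, made from the chromosome 1 cluster alone, had 153 and 143 UMIs in the MI libraries, and 126 and 65 UMIs in the sham libraries. The MI libraries had the larger counts although both were shallower than sham replicate 1. Its level was 699 CPM (592 to 819) and 1057 CPM (891 to 1245) after MI, and 334 CPM (278 to 398) and 405 CPM (313 to 516) after sham surgery. Both MI values lay above both sham values, as was the case for 21.7% of all tested miRNAs, while both lay below for 26.6%. The 4 counting intervals of miR-29c-3p separated the groups, and those of the MI libraries did not overlap each other. It ranked 73rd and 60th in the MI libraries, and 110th and 99th in the sham libraries.

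The means of miR-29c-3p were 878 ± 253 CPM after MI and 369.6 ± 50.1 CPM after sham surgery (SD, n = 2 each). The log2 fold change was 1.26 (SE 0.26), or 2.39-fold, with an edgeR adjusted p of 0.127 and an unadjusted p of 0.00619 in the same edgeR fit. By size it was 27th of the 267 tested miRNAs counted from the highest log2 fold change, and by p it was 13th. The read sets of replicate 2 of both groups share a tag in their file headers that those of replicate 1 lack, and the sources used here do not explain it. Between the libraries with the tag the log2 ratio of CPM, MI over sham, was 1.38 for miR-29c-3p, -0.07 for miR-29a-3p and 0.04 for miR-29b-3p. Between those without it, the log2 ratio was 1.06 for miR-29c-3p, 0.10 for miR-29a-3p and -0.39 for miR-29b-3p. The call of miR-29c-3p changed with 1 library, since it passed without sham replicate 2, at a log2 fold change of 1.36. It did not pass without MI replicate 1 (1.36), sham replicate 1 (1.07) or MI replicate 2 (1.00). Each of these fits leaves 1 library in a group. It also passed when no filter on low counts was used (adjusted p = 0.00934) and when only the 189 miRNAs listed in all 4 libraries were tested (adjusted p = 0.0393, an alternative added after the data were seen). With no filter the median log2 fold change of all tested miRNAs was -0.39. miR-29c-3p did not pass in the other 11 of 14 alternatives. Its adjusted p was 0.293 in the DESeq2 Wald test and 0.378 in the edgeR test with unlisted names at 9 UMIs.

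**Figure D2:**
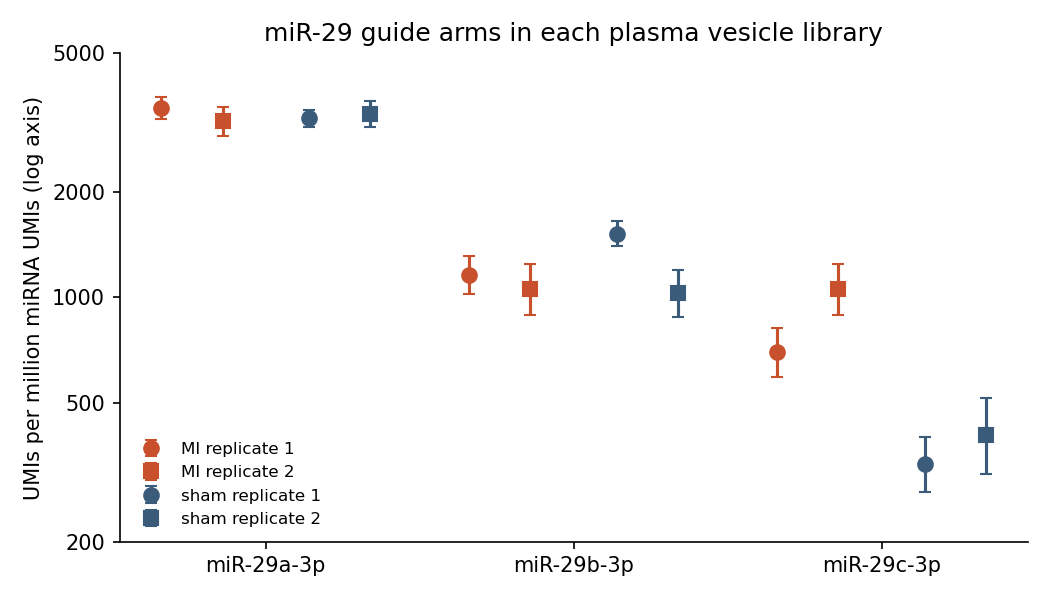
Level of each guide arm in each library, in UMIs per 1000000 miRNA UMIs on a log axis, with 95% exact Poisson intervals as bars (counting error only); MI libraries are red and sham libraries blue. miR-29c-3p lies at 699 and 1057 CPM after MI and at 334 and 405 CPM after sham surgery, while the values of the other members overlap between the groups.

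**Figure D3:**
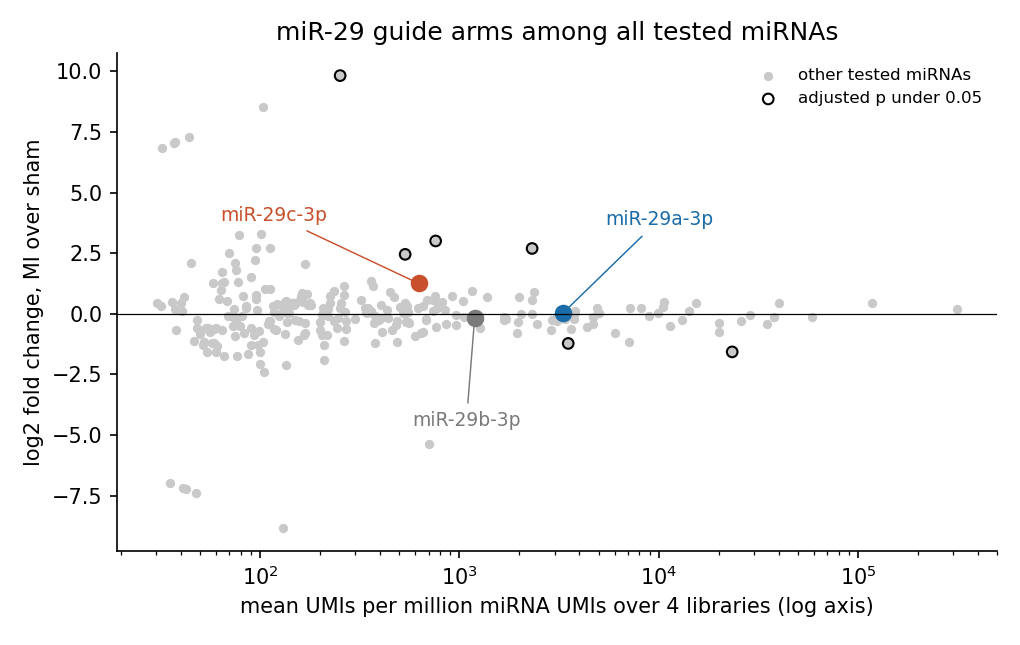
Log2 fold change, MI over sham, against the mean level over 4 libraries (log axis) for 267 tested miRNAs; each point is 1 miRNA and circles mark an adjusted p under 0.05. miR-29c-3p lies at 1.26, miR-29a-3p at 0.05 and miR-29b-3p at -0.18, and none is circled; the points farthest from 0 are fitted values of miRNAs unlisted in some libraries.

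The guide arms together took 0.535% (0.505 to 0.566) and 0.531% (0.493 to 0.571) of miRNA UMIs in the MI libraries, and 0.511% (0.488 to 0.534) and 0.479% (0.445 to 0.514) in the sham libraries. The MI shares lay above the sham shares by a mean of 0.0381 percentage points, and the counting intervals of each MI library overlapped those of both sham libraries. Without sham replicate 2 the difference was 0.0221 percentage points. As a share of the UMIs of all tabulated classes the groups overlapped, with 0.134% and 0.118% after MI, and 0.126% and 0.103% after sham surgery. miR-29c-3p was 13.1% (11.2 to 15.1) and 19.9% (17.1 to 23.0) of the family after MI, and 6.55% (5.48 to 7.74) and 8.46% (6.59 to 10.7) after sham surgery. miR-29b-3p was 21.7% and 19.9% of the family after MI, and 29.8% and 21.5% after sham surgery. miR-29a-3p was 65.2% and 60.2% after MI, and 63.6% and 70.1% after sham surgery. It was the leading member of every library, with overlapping ranges.

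**Figure D4:**
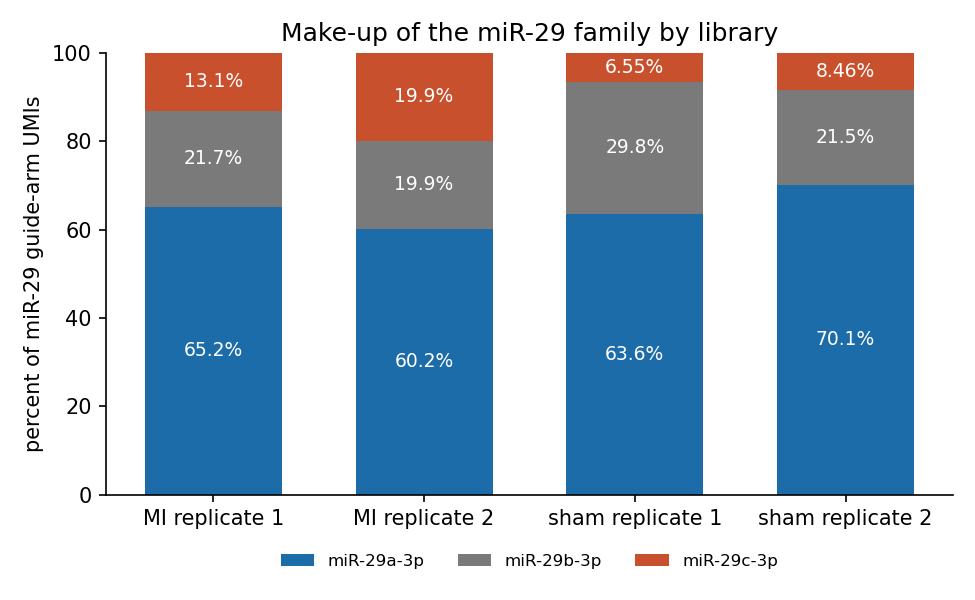
Share of each guide arm among the miR-29 guide-arm UMIs of each library, in percent, as stacked bars. miR-29c-3p makes up 13.1% and 19.9% in the MI libraries and 6.55% and 8.46% in the sham libraries.

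Within a library the ratio of 2 members does not depend on library size or scaling. The log2 ratio of miR-29c-3p to miR-29a-3p, which differ by the C10U substitution, was -2.32 and -1.60 in the MI libraries, and -3.28 and -3.05 in the sham libraries. In linear terms there was 1 UMI of miR-29c-3p for every 4.99 and 3.02 UMIs of miR-29a-3p after MI, and for every 9.72 and 8.28 after sham surgery. The means were -1.96 ± 0.51 after MI and -3.17 ± 0.16 after sham surgery (SD, n = 2 each), a difference of 1.21 on the log2 scale. The exact permutation test of this ratio gave p = 0.333, two-sided, which is the smallest p that 2 against 2 libraries allow. The ratios are those of captured and counted molecules.

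The members that share the chromosome 1 cluster were compared in the same way. The log2 ratio of miR-29c-3p to miR-29b-3p was -0.73 and 0.00 in the MI libraries, where replicate 2 had equal UMIs of both, and -2.19 and -1.34 in the sham libraries. The difference of the means was 1.40 on the log2 scale, again with the smallest exact permutation p of 0.333. For the chromosome 6 cluster, the log2 ratio of miR-29b-3p to miR-29a-3p was -1.59 and -1.60 in the MI libraries, and -1.09 and -1.71 in the sham libraries. These overlapped, with a difference of -0.19 that became 0.11 without sham replicate 1 (exact permutation p = 1.0 over the 4 libraries). The adjusted p over the 3 ratios is 0.5 for the first and second and 1.0 for the third.

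Passenger arms were near the listing floor. miR-29a-5p was listed in MI replicate 1 with 10 UMIs, the lowest count a listed row can have, which is 45.7 CPM (21.9 to 84.0). It was below 10 UMIs, or at most 66.5 CPM, in MI replicate 2, and at most 23.9 and 56.1 CPM in the sham libraries. miR-29b-1-5p was unlisted in both MI libraries, at most 41.1 and 66.5 CPM, and was listed in sham replicate 1 with 14 UMIs, or 37.1 CPM (20.3 to 62.3). In sham replicate 2 it was at most 56.1 CPM. Neither passed the filter on low counts, so neither was tested, and every limit for an unlisted library lay within or above the counting interval of the listed one, so no difference was detectable at this depth. miR-29b-2-5p and miR-29c-5p, the passenger arms of the chromosome 1 cluster, were listed in no library, so the passenger arms do not show how much miR-29b-3p each cluster supplied.

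The long non-coding RNA in which Mir29b-2 and Mir29c lie was also present as fragments. Its transcript A330023F24Rik-202 (ENSMUST00000181273), which ends 110 bases before Mir29b-2 and so does not contain the hairpins, had 235 and 160 UMIs in the MI libraries, and 450 and 176 UMIs in the sham libraries. Per 1000000 UMIs of all tabulated RNA classes this was 269 and 264 after MI, and 295 and 236 after sham surgery, so the groups overlapped on that scale. Per 1000000 UMIs of the other-RNA table in which it is listed, it had 1422 and 948 after MI, and 2577 and 1539 after sham surgery, with both MI libraries below both sham libraries. Whether the groups overlapped therefore depended on the scale, and neither comparison was tested. How often other entries separated the groups in this way was not counted. On the scale of all classes miR-29c-3p had 175 and 236 UMIs on that scale after MI, and 82.7 and 87.1 after sham surgery. The sources used here do not say where in the transcript the fragments lay or whether they match other places in the genome. No fragment of Gm27019, at the chromosome 6 cluster, was listed.

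miRNAs were ranked by how closely their levels followed each member, as the root mean square difference of log2 CPM over the 4 libraries, each centred on its own mean. Over 188 other miRNAs listed in all libraries, let-7d-5p (0.05), miR-92b-3p (0.06) and miR-125a-5p (0.06) were closest to miR-29a-3p. For miR-29b-3p the closest were miR-10a-5p (0.08), miR-101b-3p (0.09) and let-7k (0.09). For miR-29c-3p the closest were miR-144-5p (0.24), a red cell miRNA, miR-7011-5p (0.26) and miR-5113 (0.28). miR-144-5p had 146 and 273 CPM in the MI libraries, and 109 and 118 CPM in the sham libraries, with MI replicate 2 highest as for miR-29c-3p. The other arm of its hairpin, miR-144-3p, had a log2 fold change of 0.03 and overlapped between the groups. The log2 ratio of CPM, MI over sham, was -0.58 between replicates 1 and 0.61 between replicates 2 for miR-144-3p. For miR-144-5p it was 0.43 and 1.21. The 5 red cell miRNAs listed below summed to 197739 CPM in MI replicate 1 and 164955 CPM in MI replicate 2, the opposite order to miR-29c-3p. Most of that sum was miR-486b-5p and miR-486a-5p, at means of 133056 and 46052 CPM after MI. The family members themselves were not each other's closest. miR-29b-3p was 58th closest to miR-29a-3p, and miR-29c-3p was 168th from miR-29a-3p and 169th from miR-29b-3p. Ranks depend on the member they are taken from. Ranked from miR-29b-3p, miR-29a-3p was 35th. Ranked from miR-29c-3p, miR-29a-3p was 76th, at 0.66 against a median of 0.71, and miR-29b-3p was 123rd. These are descriptions over 4 libraries that differ in depth and in group, and the part of either in the likeness was not tested.

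Other miRNAs linked to matrix and fibrosis in heart models were taken from a list. It was chosen with earlier results of these data known, so its counts are no independent evidence. Of 7 listed as restraining collagen or fibrosis, all were tested and 6 had a log2 fold change above 0, with a median of 0.24. Of these 6, miR-30c-5p (0.24), miR-26a-5p (0.05) and miR-101a-3p (0.04) overlapped between the groups. Over all tested miRNAs, 132 of 267 were above 0, with a median of -0.01. Of the 7, 2 rose after MI and 0 fell at an adjusted p under 0.05, against 1.50% and 0.749% of all tested miRNAs. Those that rose were miR-133a-3p, a muscle miRNA that restrains connective tissue growth factor, at 4008 ± 539 CPM after MI and 622 ± 69.0 CPM after sham surgery (edgeR adjusted p = 0.00675), and its near-identical paralog miR-133b-3p, whose reads may be shared with it, at 1351 ± 231 CPM and 169 ± 9.20 CPM for the same groups (edgeR adjusted p = 0.00675). The other 5 did not pass. Among them, miR-30a-5p, which shares that target, had 3069 ± 13.5 CPM after MI and 1675 ± 77.0 CPM after sham surgery (edgeR adjusted p = 0.0822). miR-24-3p had the opposite sign, at 2829 ± 9.54 CPM after MI and 4465 ± 276 CPM after sham surgery, a log2 fold change of -0.63 (edgeR adjusted p = 0.146). Of 4 listed as promoting fibrosis, 2 were tested, 1 rose and 0 fell. That one was the cardiac miR-208a-3p, at 504 ± 43.4 CPM after MI, unlisted in both sham libraries and at least 12.6-fold higher against 9 UMIs in each of them (edgeR adjusted p = 0.0186 with unlisted counts as 0). The other was miR-21a-5p, a miRNA raised in injured heart, at 2188 ± 71.8 CPM after MI and 3557 ± 270.2 CPM after sham surgery (edgeR adjusted p = 0.137). miR-34a-5p and miR-199b-5p were unlisted in every library. All of these passing calls were lost in the edgeR test without sham replicate 1, where no miRNA passed in either direction, with 15 higher and 15 lower at an unadjusted p under 0.05.

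Levels of miRNAs that mark other cell types were also compared between the groups. Their lists, too, were chosen with earlier results of these data known. The counts past the threshold below stand against 1.50% of all tested miRNAs as higher and 0.749% as lower. The 5 red cell miRNAs were all listed, summing to 164955 to 197739 CPM after MI and 130350 to 142716 CPM after sham surgery. A log2 fold change above 0 was found for 5 of 5, against 132 of 267 tested miRNAs, with 0 past the threshold. These 5 are not separate results, since miR-144-3p and miR-144-5p are arms of 1 hairpin. miR-144-3p was at 0.03 and overlapped between the groups. miR-486a-5p and miR-486b-5p were at 0.45 and 0.44, and whether they share reads was not tested. Of the 7 muscle miRNAs 5 were listed, summing to 11102 to 11719 CPM after MI and 9269.8 to 9423 CPM after sham surgery, with 3 higher, 0 lower, and miR-208b-3p and miR-499-5p unlisted in every library. The 3 higher ones were miR-133a-3p, miR-133b-3p and miR-208a-3p, the same miRNAs that rose in the matrix and fibrosis lists above. The calls of the muscle list and of those lists are therefore not separate results. The muscle sum includes miR-206-3p, a miRNA of skeletal muscle. It had the opposite sign to the other 4, at 4331 ± 263 CPM after MI and 7694 ± 419 CPM after sham surgery. Its log2 fold change was -0.80 (edgeR adjusted p = 0.121). The 4 liver miRNAs summed to 15185 to 15709 CPM after MI and 39742 to 40311 CPM after sham surgery, with 1 lower. That one, miR-122-5p, made most of the sum, at 11638 ± 544 CPM after MI and 35077 ± 166 CPM after sham surgery (edgeR adjusted p = 0.00675). miR-194-5p (log2 fold change -0.66), miR-148a-3p (-0.40) and miR-192-5p (-0.23) did not pass, and miR-192-5p overlapped between the groups. The 7 leukocyte miRNAs summed to 30494 to 35069 CPM after MI and 48345 to 50537 CPM after sham surgery, with 1 lower. The 5 platelet and endothelial miRNAs summed to 30517 to 34596 CPM after MI and 39763 to 44879.6 CPM after sham surgery, with none past the threshold. That sum includes miR-191-5p, at 14807 ± 743 CPM after MI and 25208 ± 1054 CPM after sham surgery (edgeR adjusted p = 0.0691). Only 1 of the 5, miR-126a-3p, had a log2 fold change above 0 (0.10), and its levels overlapped between the groups. Of the 5 fibroblast and smooth muscle miRNAs 4 were listed, summing to 3887 to 4375 CPM after MI and 3964 to 4708 CPM after sham surgery, with none of 3 tested past the threshold and miR-214-3p unlisted in every library. The tested ones did not go 1 way. The log2 fold change was 1.35 for miR-145a-5p (edgeR adjusted p = 0.466), with both MI libraries above both sham libraries. It was 0.39 for miR-143-3p, which overlapped, and -0.29 for miR-199a-3p. The part of these cell types in the level of miR-29c-3p was not tested.

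**Figure D5:**
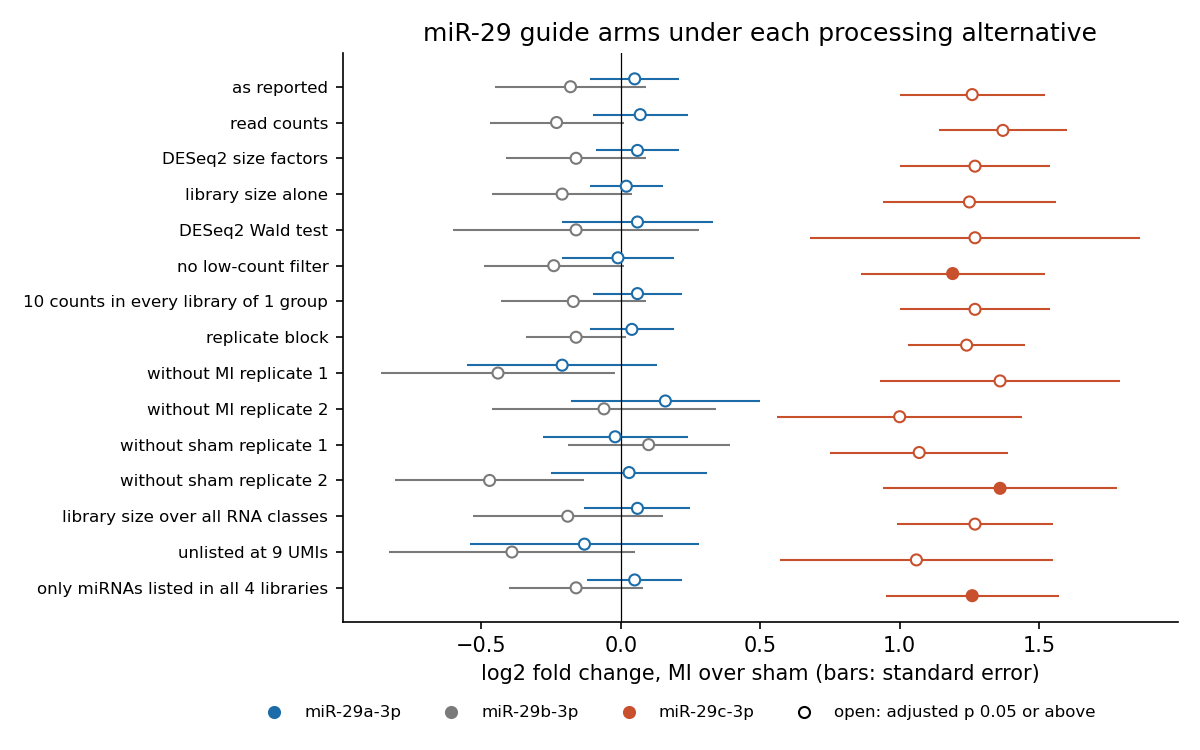
Log2 fold change, MI over sham, of each guide arm under each way of processing, with its standard error as a bar; filled points have an adjusted p under 0.05. miR-29c-3p lies between 1.00 and 1.37 throughout and is filled in 3 of 14 alternatives, while miR-29a-3p and miR-29b-3p cross 0 and are never filled.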

How the data were processed

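Per the labels' protocols, differential centrifugation gave the vesicles, Trizol and chloroform their RNA, and the QIAseq miRNA kit the libraries. The deposited values are raw counts of UMIs and of reads per feature and reads per read class, per the file headers, without normalization. The sources used here do not give an aligner, its settings or a genome build. Deposited tables for mappable but uncharacterised sequences had headers and no rows, and were not used. Each table of miRNAs held 1 divider line without values before its piRNA rows, which was left out.

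The main test, on UMI counts of every miRNA, was the quasi-likelihood F-test of edgeR 4.0.16 under R 4.3.3, with TMM factors, filterByExpr (minimum count 10, minimum total 15), two-sided, with Benjamini-Hochberg adjustment over all tested miRNAs at 0.05. Unlisted names were entered as 0. Each standard error was taken as |log2 fold change| over √F. CPM are UMIs per 1e6 miRNA UMIs. Over 189 miRNAs, chi-square per degree of freedom was 10.6 for the MI pair and 16.0 for the sham pair, so no library was a copy of another. DESeq2 1.42.0 was an alternative, exact permutation tests used scipy 1.17.1, and the fit was tested on simulated data. Alternatives were read counts, other scalings, filters and tests, a replicate block, leaving out each library, unlisted names at 9 UMIs and, added after seeing the data, names listed in all 4 libraries. The members and lists were chosen with earlier results of these data known. Named miRNAs are the members, the 3 closest in pattern to each guide arm, and those of the lists. Sequences are from RefSeq (GRCm38.p6) and annotations from GENCODE M21.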

Additional observations from a re-analysis of the deposited data

How the results depend on the processing

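miR-29c-3p was above 0 in 14 of 14 alternatives (log2 fold change 1.00 to 1.37, adjusted p 0.00934 to 0.501) and past the threshold in 3, at 1.19 with no filter on low counts, at 1.26 with only miRNAs listed in all 4 libraries, and without sham replicate 2. Leaving out 1 library gave 1.00 to 1.36. miR-29a-3p turned to -0.01 with no filter, where the median of all tested miRNAs was -0.39, and to -0.13 with unlisted names at 9 UMIs, and spanned -0.21 to 0.16 when leaving out 1 library. miR-29b-3p spanned -0.47 to 0.10 in the same way. No alternative called either. For all miRNAs, 4 were higher and 2 lower as reported. The counts were 4 and 4 with DESeq2 size factors, 5 and 5 with library size alone or unlisted names at 9 UMIs, 8 and 7 with the DESeq2 Wald test, 8 and 12 with no filter, and 5 and 8 with names listed in all 4 libraries. Leaving out 1 library gave 0 to 13 higher and 0 to 12 lower. The cause of these shifts was not tested.

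The share of the guide arms, MI minus sham, was 0.0117 percentage points of the UMIs of all tabulated classes, where the groups overlapped, and 0.0221 to 0.054 percentage points of miRNA UMIs when leaving out 1 library. The log2 ratio difference spanned 0.85 to 1.57 for miR-29c-3p over miR-29a-3p, 0.98 to 1.82 for miR-29c-3p over miR-29b-3p and -0.50 to 0.11 for miR-29b-3p over miR-29a-3p when leaving out 1 library, and each kept its sign when taken from reads. The replicate block gave log2 fold changes of 0.04, -0.16 and 1.24 for miR-29a-3p, miR-29b-3p and miR-29c-3p and 4 higher and 2 lower miRNAs by adjusted p, as without it, with 18 higher and 19 lower by unadjusted p against 16 and 23 without it. The labels do not pair equal replicate numbers, and the deviations of equally numbered libraries had a correlation of 0.243 across 189 miRNAs. With 2 libraries per group and 65 to 153 UMIs of miR-29c-3p in each, changes smaller than the spread between replicates could not be detected.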

Other observations

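Reads per UMI differed between the members. miR-29c-3p had 12.6 and 12.4 reads per UMI in the MI libraries, and 14.4 and 10.8 in the sham libraries. The median over all listed miRNAs was 10.8 and 11.5 reads per UMI in the MI libraries, and 12.9 and 11.3 in the sham libraries. miR-29b-3p was read more often per molecule than miR-29a-3p in every library, with 12.7 and 14.3 reads per UMI after MI, and 16.0 and 14.5 after sham surgery, where miR-29a-3p had 11.6 and 12.2 after MI, and 13.7 and 11.8 after sham surgery. Both were above the median of all listed miRNAs in every library. Counted from reads, miR-29c-3p stood at 785 and 1109 reads per 1000000 miRNA reads in the MI libraries, and at 354 and 377 in the sham libraries.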
